A study of Mus musculus with 12 samples.

Results

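The 10 genes described here were listed as bile acid synthesis enzymes of the liver: Cyp7a1, Cyp8b1, Cyp27a1, Cyp7b1, Cyp39a1, Hsd3b7, Amacr, Slc27a5, Baat and Acnat1. They were taken from the count table by gene name and are 10 of its 55414 genes. All 10 passed the filter on low counts, as did 13857 genes in all. Livers came from 12 female C57BL/6J mice, which the study used at 8 to 12 weeks of age, and no group carried a mutant allele. Mice received an intraperitoneal injection of 0.9% NaCl alone or of 300 mg/kg FeSO4 dissolved in 0.9% NaCl. This FeSO4 dose causes acute iron overload. After 6 h they were given either PBS or 10 mg/kg dexamethasone (DEX), a synthetic ligand of the glucocorticoid receptor, and livers were collected 2 h later, 8 h after the first injection. This gave 4 groups of 3 mice: NaCl/PBS, NaCl/DEX, FeSO4/PBS and FeSO4/DEX. Polyadenylated RNA of liver tissue from each mouse was sequenced in bulk. Values are counts per gene scaled to a common library size, called normalized counts, and are given in the order of replicates 1 to 3.

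Hepatocytes convert cholesterol into bile acids, which carry cholesterol out of the body and help to absorb dietary fat. In the classic route Cyp7a1 makes the first and rate-limiting hydroxylation of cholesterol. Another route starts with hydroxylation of the sterol side chain by Cyp27a1, a mitochondrial P450, followed by Cyp7b1, and Cyp39a1 serves a minor oxysterol route. Hsd3b7 then oxidises the sterol ring, Cyp8b1 adds the hydroxyl group that turns the product into cholic acid, and Amacr flips the configuration of the side chain so that it can be shortened in peroxisomes. Slc27a5 activates bile acids with coenzyme A, Baat joins them to an amino acid, mostly taurine in mice, and Acnat1 is a peroxisomal acyltransferase related to Baat. Bile acids repress Cyp7a1 and Cyp8b1 through the receptor Nr1h4 (FXR) and its target Nr0b2 (SHP).

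Library totals ranged from 16335651 to 23827340 counts. Scaling factors were 0.871 to 1.16 and were lower in all 6 FeSO4 livers than in all 6 NaCl livers. Chi-square values per gene between mice of 1 group ran from 16.8 to 81.4, well above the sampling noise of the reads, and were highest for pairs with replicate 1 of FeSO4/PBS. The hepatocyte markers Alb, Apoa1, Ttr, Trf, Fgb, Serpina1c, Ahsg and Apoc3 were detected in every group, and their summed normalized counts were 2275823 to 2674075 in NaCl/PBS and 2901889 to 3289406 in FeSO4/PBS. Summed neutrophil markers were 51 to 190 in NaCl/PBS against 692 to 867 in FeSO4/PBS, and 5 of the 5 tested neutrophil markers rose. Macrophage markers summed to 7818 to 9138 in NaCl/PBS and 4061 to 4827 in FeSO4/PBS, and 7 of 8 fell. For cholangiocyte markers the sums were 534 to 686 and 1068 to 1377, with 2 of 5 tested genes higher. Endothelial sums of 4654 to 5491 and 4991 to 6230 overlapped between these groups, with 2 of 6 markers higher and 2 lower. Stellate cell sums were 4411 to 4530 and 4579 to 6525, with 2 of 6 markers higher and 1 lower. Pericentral hepatocyte markers summed to 147345 to 160546 in NaCl/PBS and 129513 to 147327 in FeSO4/PBS, with 2 of 8 higher and 2 lower. Periportal markers summed to 159578 to 202126 and 161398 to 210478, with 4 of 8 higher and 1 lower. These marker calls stand beside 27.2% of all tested genes higher and 27.3% lower at an adjusted p of 0.05 or less in edgeR. Of 5 intestine and pancreas markers, Prss2 and Cpa1 had no count in any library. In bulk liver, fewer cells of a type and less RNA per cell cannot be told apart, and the part of these cell types in the results below was not tested.

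Levels of different enzymes were compared per kilobase of exon, as normalized counts per kilobase. In NaCl/PBS livers Slc27a5 had the highest level, 5574 ± 438 (SD, n = 3), followed by Cyp27a1 at 2466 ± 111 and Baat at 2084 ± 121. Cyp7a1 came next at 1667 ± 141 per kilobase, and its mice overlapped with those of Cyp8b1 at 1411 ± 273. Cyp39a1 at 424 ± 83.0 and Amacr at 352 ± 7.89 also overlapped, ahead of Acnat1 at 147 ± 8.76. Hsd3b7 at 32.3 ± 2.76 and Cyp7b1 at 31.4 ± 1.53 were the lowest and did not separate. The level of Hsd3b7 rests on a small part of its sequence: 91.0% of the 100-base windows of its main transcript also lie in the overlapping gene Gm49388 on the same strand, and the counting drops reads that hit both genes. For Acnat1, 5.21% of windows are shared with its neighbour Acnat2, for Cyp7b1 0.463% are shared with other genes, and the other 7 enzymes shared none on their own strand. On the opposite strand, exons of Cyp27a1 overlap Prkag3 by 1088 bases and those of Hsd3b7 overlap 9430064I24Rik by 2208 bases. Cyp7b1 has a smaller overlap of 67 bases. Amacr and Baat overlap by 270 and 75 bases with genes that are not in the count table and so were not counted. Whether the overlaps of Cyp27a1, Hsd3b7 and Cyp7b1 cost reads depends on the strand setting that was kept, which is not given.

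**Figure D1:**
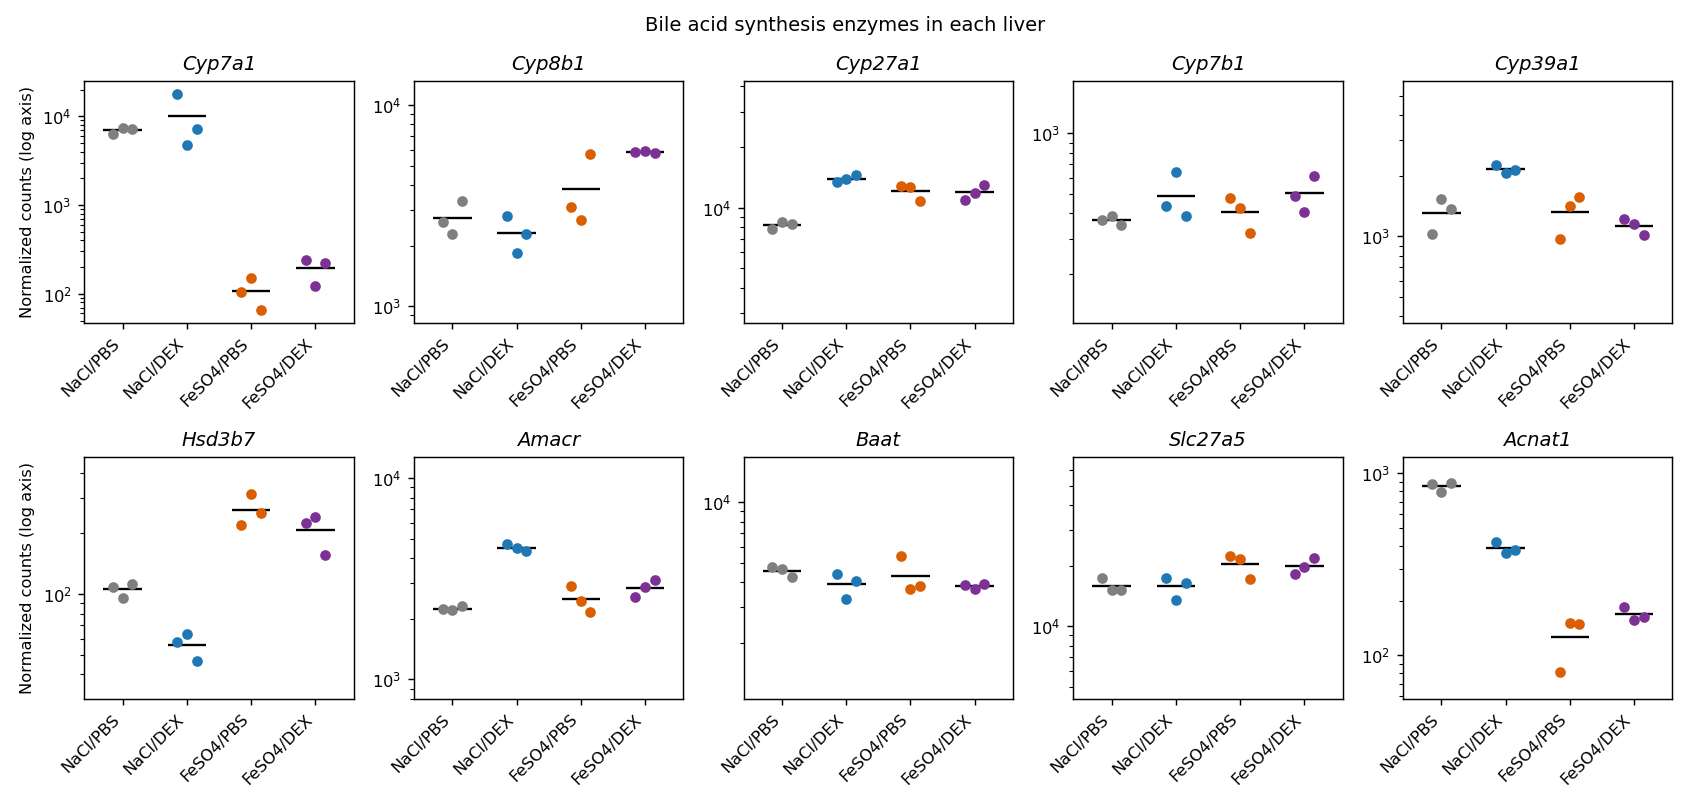
Normalized counts of the 10 enzymes in each liver (log axes, each of its own range), by group. Each point is 1 mouse and each bar the mean of 3; Cyp7a1 lay between 65.0 and 241 in all 6 FeSO4 livers and between 4804 and 17870.3 in all 6 NaCl livers.

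Iron sulfate without DEX was compared with saline to see what acute iron overload did to the pathway. Cyp7a1 was nearly lost, Acnat1 fell several-fold, and Hsd3b7, Cyp27a1 and Slc27a5 rose, while the other enzymes did not pass the test. Of the 10 enzymes 3 were higher and 2 lower at an adjusted p of 0.05 or less (edgeR quasi-likelihood test, Benjamini-Hochberg over all genes tested). Of all tested genes 27.2% were higher and 27.3% lower, so the number of enzymes called was close to that background. The median log2 fold change (LFC) of the enzymes was 0.15, against -0.02 for all genes.

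Cyp7a1 (ENSMUSG00000028240), which lies on chromosome 4 from 6265612 to 6275633 (mm39, minus strand, 6 exons), had 6284, 7359.9 and 7236 normalized counts in the NaCl/PBS mice. In the FeSO4/PBS mice it had 104, 153 and 65.0, which rest on 51 to 150 reads per library. All 3 FeSO4/PBS mice were thus far below all 3 controls, and the groups did not overlap. The LFC was -6.01 ± 0.49 (SE), a 64.3-fold difference, with an adjusted p of 3.6e-07, and it stayed between -6.35 and -5.76 when any 1 of the 12 mice was left out.

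Cyp8b1 (ENSMUSG00000050445; chromosome 9 from 121743422 to 121745371, minus strand, a single exon) acts later in the same route and did not fall with Cyp7a1. Its normalized counts were 2622, 2296 and 3337 in NaCl/PBS and 3100.5, 2691 and 5711 in FeSO4/PBS. Only replicate 3 of FeSO4/PBS stood above all controls, and the groups overlapped. The LFC of 0.48 ± 0.24 had an adjusted p of 0.11 and a 95% interval from -0.03 to 0.99. Without replicate 2 of FeSO4/PBS the LFC was 0.68 with an adjusted p of 0.026, and over all mice left out in turn it ranged from 0.08 to 0.68. Without a filter on low counts the same LFC of 0.48 had an adjusted p of 0.0036, but the SE was then 0.14 in place of 0.24.

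The promoter of Cyp8b1 is shown because it holds a motif whose factor, Hnf4a, is described with the regulators. The run gives 250 bases before and 50 bases from the start of the main transcript, 5′ to 3′ on the gene's strand, at chr9:121745322-121745621 (GRCm39, the assembly also named mm39).
Cyp8b1: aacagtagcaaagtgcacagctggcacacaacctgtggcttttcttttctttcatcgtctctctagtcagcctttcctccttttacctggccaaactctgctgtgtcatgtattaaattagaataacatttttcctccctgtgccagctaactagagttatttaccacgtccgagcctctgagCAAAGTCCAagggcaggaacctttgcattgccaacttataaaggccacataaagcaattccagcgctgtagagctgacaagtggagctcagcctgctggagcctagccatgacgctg
Capitals mark CAAAGTCCA, 67 to 59 bases before the start, a form of the site that the hepatocyte factor Hnf4a can bind. This motif was chosen after sequences had been read. On both strands it was in 0.505% of 12673 promoters of the same length of tested protein-coding genes, and Baat also held it, 18 to 10 bases before its start. The other 3 motifs searched were TCAAGGTCA, which Nr5a2 (LRH-1) can bind, the nuclear receptor half-site AGGTCA, which lies within TCAAGGTCA, and the D-box TTATGTAA. AGGTCA was in 13.6% of promoters, TCAAGGTCA in 0.355% and TTATGTAA in 0.631%. Of 9 enzyme promoters searched, those of Cyp7b1 and Amacr held AGGTCA, and none held TCAAGGTCA or TTATGTAA. A match is a description of the letters and was not tested as a binding site.

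In the other route Cyp27a1 rose: 7788, 8510.0 and 8266 normalized counts in NaCl/PBS against 12779.9, 12666 and 10835 in FeSO4/PBS. Every iron-treated mouse was above every control, and the LFC was 0.56 ± 0.11 with an adjusted p of 0.00068. With scaling by library size alone, which moved the median LFC of all genes to -0.34, the LFC of Cyp27a1 was 0.24 with an adjusted p of 0.056. Relative to that median it was 0.58. That scaling also changed the split of all genes called, from 3770 higher and 3783 lower to 2285 higher and 5829 lower. Cyp7b1, which acts after Cyp27a1, had 351 to 387 normalized counts in NaCl/PBS and 321 to 476 in FeSO4/PBS (LFC 0.14, 95% interval -0.29 to 0.57). Cyp39a1 ranged from 1030.0 to 1534 and from 965 to 1559.7 (LFC 0.01, 95% interval -0.36 to 0.37).

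Hsd3b7 had 109, 95.4 and 113 normalized counts in NaCl/PBS and 221, 312 and 254 in FeSO4/PBS. All iron-treated mice were higher, with an LFC of 1.31 ± 0.19 and an adjusted p of 6.8e-05. These counts rest only on reads that the counting could assign to Hsd3b7 and not to Gm49388, which had no count in any library. The side-chain enzyme Amacr did not pass the test, with 2211 to 2305 normalized counts in NaCl/PBS and 2163 to 2899 in FeSO4/PBS (LFC 0.15, 95% interval -0.10 to 0.41).

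Acnat1 (ENSMUSG00000070985, chromosome 4 from 49443594 to 49473912) is an acyltransferase related to Baat. It fell from 872, 789 and 881 to 80.6, 151 and 149 normalized counts. The groups were far apart, and replicate 1 of FeSO4/PBS was the lowest. The LFC was -2.75 ± 0.19, a 6.71-fold difference, with an adjusted p of 8.9e-08. Its relative Baat, which lies on the same chromosome from 49489289 to 49506563, had 4257 to 4770.2 normalized counts in NaCl/PBS and 3704 to 5371 in FeSO4/PBS. The LFC of Baat was -0.08 with a 95% interval from -0.39 to 0.23. With library size alone it was -0.40 with an adjusted p of 0.021, which is -0.07 relative to the median of all genes. Slc27a5 had 17316, 15125 and 15185 normalized counts in NaCl/PBS and 22340.4, 21683 and 17268 in FeSO4/PBS. The lowest iron-treated mouse was below the highest control, and the LFC was 0.36 ± 0.14 with an adjusted p of 0.037. That call did not hold without NaCl/PBS replicate 2 or 3 or without FeSO4/PBS replicate 1 or 2 (LFC 0.33, 0.33, 0.30 and 0.32, adjusted p from 0.090 to 0.11). It was also lost in a fit of only the 6 libraries compared (LFC 0.37, adjusted p 0.054) and with library size alone (LFC 0.04, adjusted p 0.79). With library size alone the LFC of Slc27a5 was 0.38 relative to the median of all genes.

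**Figure D2:**
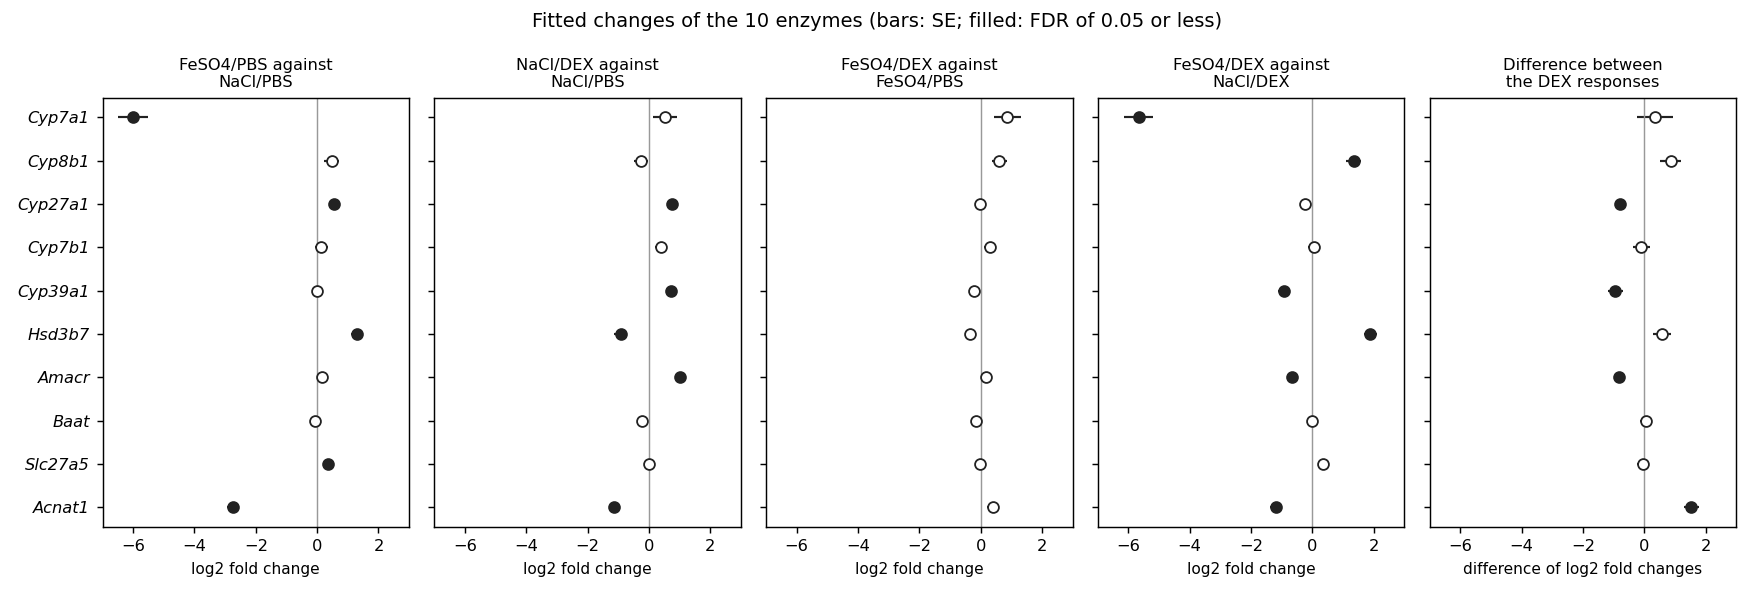
Fitted log2 fold changes of the 10 enzymes in each comparison and, on the right, the difference between the 2 DEX responses. Bars are SE and filled points have an adjusted p of 0.05 or less; Cyp7a1 lies at -6.01 and -5.66 in the comparisons of iron with saline, and no point is filled for DEX after iron.

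The same question was asked in DEX-treated mice, FeSO4/DEX against NaCl/DEX, which shares no mouse with the comparison above. Cyp7a1 and Acnat1 were again lower and Hsd3b7 higher, Cyp8b1 was now higher, and Amacr and Cyp39a1 were lower. In all 2 enzymes were higher and 4 lower, beside 22.4% and 20.9% of all tested genes, and the median LFC was -0.13 against 0.01 for all genes.

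Cyp7a1 had 17870.3, 4804 and 7276 normalized counts in NaCl/DEX and 241, 124 and 225 in FeSO4/DEX. The LFC was -5.66 ± 0.47 (adjusted p 7.3e-07), a 50.5-fold difference. Replicate 1 of NaCl/DEX was far above its group, and mice left out in turn moved the LFC between -5.99 and -4.94. Cyp8b1 had 2795, 1832 and 2281 normalized counts in NaCl/DEX against 5817, 5897 and 5802 in FeSO4/DEX. The 3 FeSO4/DEX mice were nearly alike and all above the NaCl/DEX mice, with an LFC of 1.34 ± 0.24 and an adjusted p of 0.00052.

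For Hsd3b7 the normalized counts were 58.0, 63.0 and 46.3 in NaCl/DEX and 224, 242 and 157 in FeSO4/DEX, with an LFC of 1.89 ± 0.21 and an adjusted p of 7.4e-06. Acnat1 had 419.7, 365 and 379.6 against 186, 156 and 162. Its LFC was -1.20 ± 0.18 with an adjusted p of 0.00013, and its NaCl/DEX mice were themselves below the NaCl/PBS mice. Cyp39a1 was lower with an LFC of -0.93 ± 0.17 (adjusted p 0.00063) and Amacr with an LFC of -0.66 ± 0.12 (adjusted p 0.00048). For both, the NaCl/DEX mice were themselves above the NaCl/PBS mice. Mean normalized counts of Amacr were 2247 in NaCl/PBS, 4514 in NaCl/DEX and 2853 in FeSO4/DEX. Those of Cyp39a1 were 1309, 2156 and 1127.5. Iron without DEX gave LFCs of 0.15 for Amacr and 0.01 for Cyp39a1, neither called. Of the rest, Cyp27a1 had an LFC of -0.23 (adjusted p 0.11) and Slc27a5 of 0.34 (adjusted p 0.060), although neither group pair overlapped. Cyp27a1 was called lower with library size alone (LFC -0.43, adjusted p 0.0038) and without replicate 1 of FeSO4/PBS (LFC -0.27, adjusted p 0.044), and Slc27a5 was called higher without replicate 3 of FeSO4/PBS (LFC 0.33, adjusted p 0.049). Cyp7b1 and Baat had LFCs of 0.05 and -0.03, with 95% intervals from -0.38 to 0.47 and from -0.34 to 0.29.

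Shares and ratios within a liver do not depend on scaling between libraries. Cyp7a1 made up 10.5% to 12.6% of the summed per-kilobase level of the 10 enzymes in NaCl/PBS and 8.20% to 22.0% in NaCl/DEX. Its share was 0.104% to 0.235% in FeSO4/PBS and 0.183% to 0.374% in FeSO4/DEX. Cyp8b1 per kilobase was 0.668 to 0.987 times Cyp7a1 in NaCl/PBS livers and 0.335 to 0.816 times in NaCl/DEX livers. That ratio was 37.7 to 188 in FeSO4/PBS and 51.7 to 102 in FeSO4/DEX, so that all iron-treated livers were apart from all saline livers. The summed level itself does depend on it: it was 13975 to 14357 normalized counts per kilobase in NaCl/PBS and 15003 to 16655 in FeSO4/PBS, but 15863 to 16474 and 14162 to 14810 with scaling by library size alone, so no direction can be given for the sum.

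**Figure D3:**
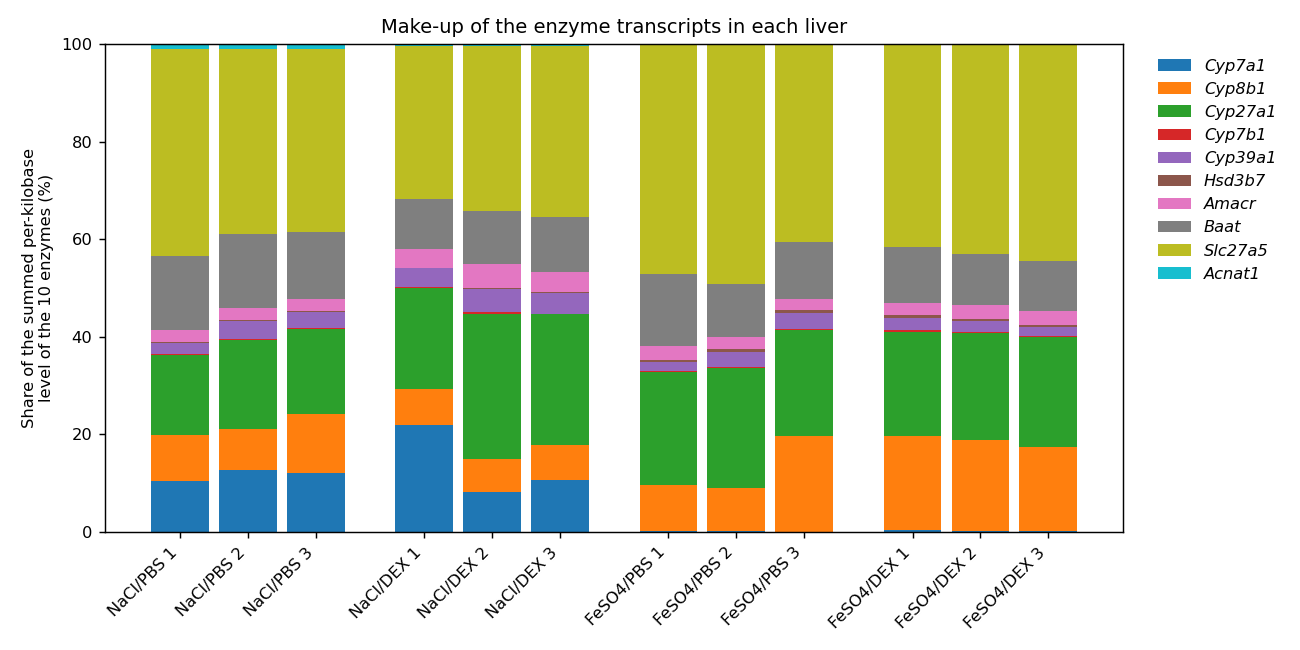
Share of each enzyme in the summed per-kilobase level of the 10 enzymes (%), 1 bar per liver. The Cyp7a1 block is 8.20% to 22.0% of the bar in the 6 NaCl livers and at most 0.374% in the 6 FeSO4 livers.

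DEX without iron was compared with saline to show the response to the glucocorticoid in otherwise untreated mice. Amacr, Cyp27a1 and Cyp39a1 rose and Acnat1 and Hsd3b7 fell. These 3 higher and 2 lower enzymes of 10 stand beside 6.5% of all tested genes higher and 7.15% lower, and the median LFC was 0.20 against -0.02. This comparison and that of FeSO4/PBS with NaCl/PBS share the 3 control mice.

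Amacr had 2225, 2211 and 2305 normalized counts in NaCl/PBS and 4716, 4484 and 4343 in NaCl/DEX, an LFC of 1.01 ± 0.12 with an adjusted p of 6.8e-05. Cyp27a1 went to 13416, 13877 and 14534 normalized counts, with an LFC of 0.77 ± 0.11 and an adjusted p of 0.00034. Cyp39a1 had 1030.0, 1534 and 1362 normalized counts before and 2263, 2073 and 2131 after DEX. In each of these genes all DEX-treated mice were above all controls. The LFC of Cyp39a1 was 0.72 ± 0.17 with an adjusted p of 0.012, and without replicate 1 of NaCl/PBS it was 0.58 with an adjusted p of 0.060.

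The NaCl/DEX values of Acnat1 and Hsd3b7 given above were all below their controls. Acnat1 fell by 1.13 ± 0.17 on the log2 scale (adjusted p 0.00056) and Hsd3b7 fell by 0.92 ± 0.21 (adjusted p 0.0090). Iron therefore went with less Acnat1 and more Hsd3b7, and DEX with less of both. Cyp7a1 spread widely among DEX-treated mice. Its LFC was 0.52 with a 95% interval from -0.30 to 1.34, and without replicate 1 of NaCl/DEX it was -0.20, so no direction can be given. Without a filter on low counts it was called higher (LFC 0.53, adjusted p 0.0038), but the SE was then 0.14 in place of 0.38. Cyp8b1 had an LFC of -0.26 (95% interval -0.77 to 0.26), Cyp7b1 of 0.40 (-0.02 to 0.83), Baat of -0.22 (-0.53 to 0.09) and Slc27a5 of -0.01 (-0.30 to 0.28).

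DEX after iron, FeSO4/DEX against FeSO4/PBS, asked whether the glucocorticoid still acted in iron-loaded livers. No enzyme was called by edgeR, and neither was any other gene: 0% of tested genes were higher and 0% lower. At an unadjusted p under 0.05 there were 444 genes higher and 456 lower, 2 enzymes among the former and 0 among the latter, and DESeq2 called 5 genes in each direction but no enzyme. The 2 enzymes were Cyp8b1, with an LFC of 0.61 (95% interval 0.09 to 1.12, adjusted p 0.73), and Acnat1, with an LFC of 0.41 (adjusted p 0.76). Cyp7a1 had an LFC of 0.87 (95% interval -0.07 to 1.81), and its FeSO4/DEX mice had at most 241 normalized counts. For the 3 enzymes that DEX raised in saline mice the intervals were narrower: -0.26 to 0.21 for Cyp27a1, -0.06 to 0.44 for Amacr and -0.59 to 0.15 for Cyp39a1. Hsd3b7, which DEX lowered in saline mice, had an LFC of -0.34 (95% interval -0.74 to 0.07). Without a filter on low counts Cyp7a1 and Cyp8b1 were called higher here, with adjusted p of 8.5e-05 and 0.0072, but 99 genes were then called higher and 71 lower and the SE of Cyp7a1 was 0.16 in place of 0.44.

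A direct test of the difference between the DEX responses, after iron minus after saline, called 1 enzyme higher and 3 lower, beside 2.99% and 3.2% of all genes. The responses of Cyp27a1, Amacr and Cyp39a1 were smaller after iron, by -0.79 ± 0.16 (adjusted p 0.0082), -0.82 ± 0.17 (adjusted p 0.0099) and -0.94 ± 0.24 (adjusted p 0.036) on the log2 scale. Cyp27a1 started from a different level in the iron-treated mice, which at 10835 to 12779.9 normalized counts were already above saline without DEX. Amacr and Cyp39a1 did not differ detectably between FeSO4/PBS and NaCl/PBS. The difference for Cyp39a1 was not called in 9 of the 12 fits that left out 1 mouse, where it ranged from -1.16 to -0.81, nor with library size alone (-0.82, adjusted p 0.076). Acnat1 differed in the other direction, by 1.54 ± 0.26 (adjusted p 0.0029): it fell with DEX in saline mice and had an LFC above 0 in iron-treated mice, whose level was already low. For the remaining 6 enzymes the difference did not pass the test. The estimate for Cyp8b1 was 0.86 (adjusted p 0.16), and 1.25 with an adjusted p of 0.0099 without replicate 3 of FeSO4/PBS. It was also called without a filter on low counts (0.85, adjusted p 0.0010), but the SE was then 0.20 in place of 0.34.

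A list of 18 other enzymes and cofactors was examined for the rest of the pathway. In FeSO4/PBS against NaCl/PBS 7 of these 18 genes were higher and 2 lower, beside the 27.2% and 27.3% of all tested genes, with a median LFC of 0.06 against -0.02 for all genes. With library size alone the split turned to 2 higher, Por and Ch25h, and 7 lower, with a median of -0.26 against -0.34 for all genes. The genes that fell were Akr1c14, a reductase of the sterol ring, and Acnat2, the neighbour and relative of Acnat1. Akr1c14 had 7913, 6559.5 and 6893 normalized counts in NaCl/PBS and 1623, 2801 and 3084 in FeSO4/PBS (LFC -1.51 ± 0.22, adjusted p 7.3e-05). Acnat2 had 1128, 1822 and 1326 against 294, 625 and 658 (LFC -1.44 ± 0.27, adjusted p 0.00053), in the same direction as Acnat1.

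Of the 4 electron donors of P450 enzymes on the list, Por, Fdx1 and Fdxr rose and Cyb5a did not pass the test (LFC 0.10, adjusted p 0.56). Por, which serves the microsomal P450s including Cyp7a1 and Cyp8b1, had 8949, 11113 and 8076 normalized counts in NaCl/PBS and 16970.0, 20133 and 15527 in FeSO4/PBS (LFC 0.90, adjusted p 7.3e-05). Fdx1 and Fdxr, which serve mitochondrial P450s such as Cyp27a1, rose by LFCs of 0.46 and 0.49 (adjusted p 0.021 and 0.026). Smaller rises were found for Acox2, a peroxisomal oxidase of the side chain, and for Cyp2c70 and Cyp2a12, which further hydroxylate bile acids in mice (LFC 0.34, 0.39 and 0.33). Ch25h, which makes an oxysterol and is known as an immune response gene, had at most 3 reads in any NaCl/PBS library. Its FeSO4/PBS mice had 39.3, 49.8 and 39.5 normalized counts, at least 17.2-fold higher than a floor of 3 reads per library (adjusted p 1.1e-05). NaCl/DEX libraries also had at most 3 reads, so Ch25h passed the filter on low counts only through the FeSO4 livers. Its adjusted p and its LFC, the highest on this list, are therefore only a description. Which cells its reads came from was not tested. The peroxisomal genes Hsd17b4, Scp2, Acot8, Abcd3 and Slc27a2 did not pass the test in this comparison, with LFCs from -0.20 to 0.26, and neither did Akr1d1, Akr1c6 and Cyp46a1, with LFCs of -0.43, -0.13 and 0.01.

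In FeSO4/DEX against NaCl/DEX 4 genes of this list were higher (Ch25h, Fdxr, Cyp2a12 and Abcd3) and Akr1c14 was lower, with an LFC of -1.12 ± 0.22 and an adjusted p of 0.0010, beside 22.4% and 20.9% of all genes. With library size alone 2 were higher, Ch25h and Fdxr, and 2 lower, Akr1c14 and Acnat2. With DEX alone 1 of the 18 rose, Por, from the values above to 17041, 15904 and 16068 normalized counts (LFC 0.80, adjusted p 0.0011). DEX after iron called none. Por was the 1 gene of this list whose DEX response differed, by -0.77 ± 0.19 (adjusted p 0.026), in the same direction as Cyp27a1, Amacr and Cyp39a1. Like Cyp27a1, Por was already raised in FeSO4/PBS, with a mean of 17543 normalized counts against 9379 in NaCl/PBS. Amacr and Cyp39a1 were not called there.

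**Figure D4:**
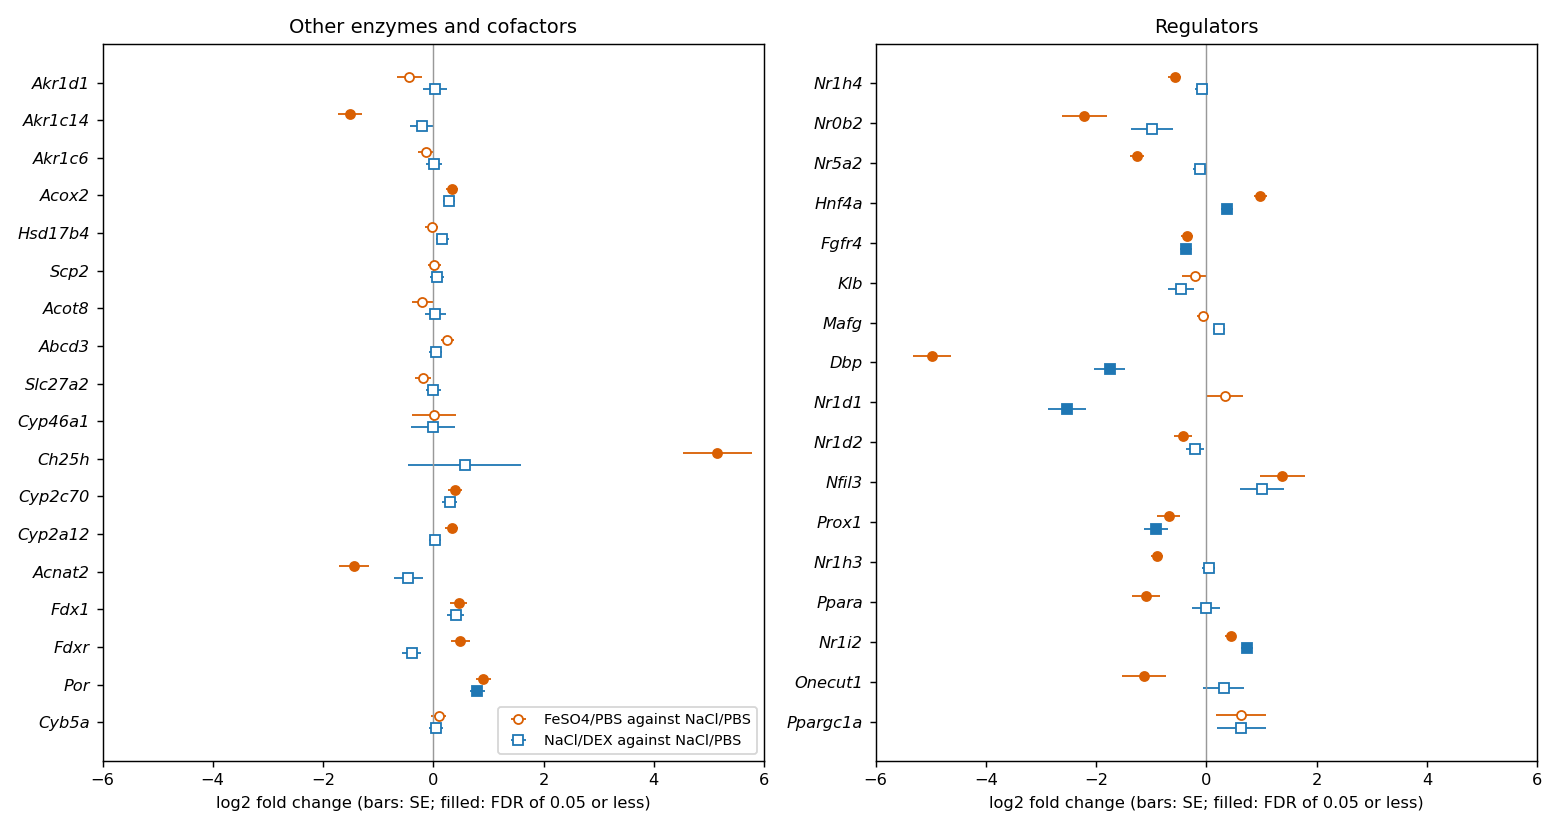
Fitted log2 fold changes of 18 other enzymes and cofactors (left) and 17 regulators (right) for iron without DEX (circles) and DEX without iron (squares). Bars are SE and filled points have an adjusted p of 0.05 or less; Dbp at -4.98 and Ch25h at 5.15 are the outermost points for iron.

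Of 17 regulators of the pathway, 3 were higher and 10 lower with iron alone, beside 27.2% and 27.3% of all tested genes, with a median LFC of -0.42 against -0.02. With library size alone 2 were higher and 11 lower, and Nr1i2 was no longer called. Nr5a2, an activator of Cyp7a1 and Cyp8b1, had 1354, 1371 and 1347 normalized counts in NaCl/PBS and 571, 578 and 553 in FeSO4/PBS (LFC -1.26 ± 0.13, adjusted p 2.6e-06). Nr0b2 (SHP), which represses Cyp7a1 and is induced by bile acids through Nr1h4, had 429, 297 and 284 against 23.2, 84.4 and 114 (LFC -2.21 ± 0.40, adjusted p 0.00039). Both an activator and a repressor of Cyp7a1 were thus lower in the livers with little Cyp7a1. Nr1h4 itself fell by 0.58 ± 0.12 on the log2 scale (adjusted p 0.0011), and Nr1h3 (LXR), a sterol sensor that activates Cyp7a1 in mice, fell by 0.89 ± 0.11 (adjusted p 2.1e-05).

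Hnf4a, which drives many hepatocyte genes, moved the other way, from 12102, 12151 and 12230.2 to 22307, 23561 and 26046 normalized counts (LFC 0.98 ± 0.11, adjusted p 6.9e-06). The others that rose were Nfil3, a D-box repressor (LFC 1.38), and the pregnane X receptor Nr1i2 (LFC 0.44). The largest fall was that of Dbp, a circadian D-box activator of Cyp7a1, with 2914, 1966 and 2309.9 normalized counts in NaCl/PBS and 81.6, 70.2 and 75.2 in FeSO4/PBS (LFC -4.98 ± 0.34, adjusted p 8.9e-08). Ppara, Onecut1, Prox1, Nr1d2 and Fgfr4 were also lower, with LFCs of -1.09, -1.13, -0.68, -0.42 and -0.36. The groups overlapped for Onecut1, Prox1 and Nr1d2. For Prox1, replicate 2 of NaCl/PBS had 3906 normalized counts against 2115 and 2169 in the other controls. Of these genes, Nr1d2 was not called with the size factors of DESeq2. Klb, Mafg, Nr1d1 and Ppargc1a did not pass the test, with LFCs from -0.21 to 0.63.

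In DEX-treated mice iron went with 3 regulators higher and 6 lower, beside 22.4% and 20.9% of all genes, and with a median LFC of -0.21 against 0.01. Nr5a2, Nr1h4, Nr1h3, Ppara, Onecut1 and Dbp were again lower, with LFCs of -1.02, -0.45, -0.73, -1.32, -1.22 and -3.33, and Hnf4a and Nfil3 were again higher, with LFCs of 0.65 and 1.23. The LFC of Nr0b2 there was -0.95 with an adjusted p of 0.070, and it was called lower with library size alone. Nr1d1 (REV-ERB), a circadian repressor, was the other gene that was higher (LFC 2.83 ± 0.36, adjusted p 2.6e-05). Its NaCl/DEX mice were themselves low, with a mean of 277 normalized counts against 1604 in NaCl/PBS and 1976 in FeSO4/DEX.

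DEX alone raised 2 of the 17 regulators and lowered 4, beside 6.5% and 7.15% of all genes, and the median LFC was -0.08 against -0.02. Nr1d1 went from 1900.3, 1058 and 1854 to 148, 412 and 272 normalized counts (LFC -2.53 ± 0.35, adjusted p 0.00026), and Dbp fell by 1.76 ± 0.28 on the log2 scale (adjusted p 0.00080). Prox1, a corepressor of Cyp7a1, fell by 0.91 ± 0.21 (adjusted p 0.0099), and Fgfr4, the hepatic receptor for the intestinal bile acid signal, fell by 0.37 ± 0.11 (adjusted p 0.042). Nr1i2 and Hnf4a rose by LFCs of 0.74 (adjusted p 0.00030) and 0.37 (adjusted p 0.038). Hnf4a was not called here with library size alone, nor Fgfr4 with the size factors of DESeq2. DEX after iron called none of the 17. The DEX response differed between saline and iron mice for Nr1d1 by 2.49 ± 0.47 (adjusted p 0.0068), for Dbp by 1.66 ± 0.46 (adjusted p 0.048) and for Fgfr4 by 0.57 ± 0.16 (adjusted p 0.050), beside 2.99% of all genes higher. Of these, Nr1d1 alone was called with the size factors of DESeq2.

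Genes with profiles most like those of Cyp7a1 and Cyp8b1 were sought among 8957 other genes with a mean of at least 100 normalized counts. Likeness was the root mean square difference of log2 profiles over the 12 libraries, each set relative to its own NaCl/PBS mean. For Cyp7a1 the nearest were Per3 (1.28), Dbp (1.31), Mblac2 (1.36), Tppp (1.62) and Cyp2d37-ps (1.65), so that none lay closer than 1.28 log2 units. Per3, a circadian clock gene, had mean normalized counts of 1377 without and 583 with DEX in saline mice, and of 13.6 and 14.8 in iron-treated mice. Its LFC to DEX in saline mice was -1.24, against 0.52 for Cyp7a1. For Cyp8b1 the nearest profiles were closer: Zfp280c (0.29), Ddx55 (0.31), Txnrd3 (0.31), Sp3 (0.31) and Mtor (0.32). These distances describe the 12 libraries, all points share the same 4 groups, and they were not tested.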

How the data were processed

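RNA of 12 mouse livers was made into stranded mRNA libraries and read from 1 end (100 cycles, NovaSeq). Reads were checked with FastQC, mapped to mm39 with STAR 2.7.10b with known junctions of GENCODE release 28 (as the methods give it) and counted per gene by STAR, which drops reads that hit several genes. Which strand setting was kept is not given in the sources used here. The authors deposited these raw counts, unnormalized, in 1 table of 55414 Ensembl genes, of which 30401 had no count, with 16335651 to 23827340 counts per library and 0 columns without a sample.

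Gene symbols, positions and exon lengths came from GENCODE vM39 on the same assembly (54749 IDs matched). The main test was the quasi-likelihood test of edgeR 4.0.16 in R 4.3.3, with TMM scaling, genes filtered by filterByExpr, 1 model of 4 group means, and Benjamini-Hochberg adjustment over 13857 genes. A gene was called higher or lower at an adjusted p of 0.05 or less. Normalized counts are counts scaled by TMM to the mean library size. The typical coefficient of variation between mice was 0.169. Levels per kilobase used the merged exons. The test was tested on simulated data first.

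The members, lists, motifs and tests were chosen with earlier results of these data known, and the lists support nothing by themselves. Named were all 10 enzymes, any gene of 2 lists of 18 other enzymes and 17 regulators beside the counts, cell type markers, and the 5 genes with a profile nearest to Cyp7a1 and to Cyp8b1 (log2 of the normalized count plus 1). Alternatives were DESeq2 1.42.0, its size factors in edgeR, library size alone, no filter, at least 10 counts in every library, a replicate block, only the libraries compared, a minimum LFC of 1, and leaving out each mouse. Nothing says whether mice of 1 group shared a cage or day, so p-values measure the spread between these mice. The authors' comparisons were not used. Of the listed regulators and the enzyme promoters, 1 each is not reported here.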

Additional observations from a re-analysis of the deposited data

Results flagged for a closer look

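Cyp27a1, Amacr, Cyp39a1 and Acnat1 responded differently to DEX in saline and in iron-treated mice by a test of that difference in edgeR (log2 response after iron minus log2 response after saline, Benjamini-Hochberg adjusted). Cyp27a1 differed by -0.79 (adjusted p 0.0082), with an LFC to DEX of 0.77 in saline and -0.02 in iron-treated mice. Amacr differed by -0.82 (adjusted p 0.0099), with LFCs of 1.01 and 0.19. For Cyp39a1 the difference was -0.94 (adjusted p 0.036), with LFCs of 0.72 and -0.22, and it was the call that 9 of 12 fits without 1 mouse lost. Acnat1 differed by 1.54 (adjusted p 0.0029), with LFCs of -1.13 and 0.41. Groups of 3 mice were too small to test single mice as outliers.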

How the results depend on the processing

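Of 940 recomputed enzyme LFCs, 908 kept their side of the threshold, 19 lost a call, 13 gained one and 0 turned a called direction; 38 changed sign with no call under either setting. The fall of Cyp7a1 and Acnat1 and the rise of Hsd3b7 with iron were called in every alternative run. With library size alone 1 enzyme was higher with iron alone, and the LFC of Slc27a5 was 0.04. That scaling moved the median LFC of all genes by more than 0.1 in 4 comparisons, to -0.34 (iron alone), -0.18 (DEX alone), -0.18 (iron with DEX) and 0.15 (difference between DEX responses), and the genes called to 2285 higher and 5829 lower, 618 and 1776, 2151 and 4146, and 575 and 327, from 3770 and 3783, 901 and 991, 3103 and 2902, and 414 and 443. With a minimum LFC of 1 there was 1 enzyme higher for iron alone, 1 higher and 1 lower for DEX alone, 2 lower for iron with DEX, and 0 lower for the difference. Without a filter on low counts Cyp8b1 was also called for iron alone and Cyp7a1 for DEX alone, with the smaller SEs given above. In that run 2 enzymes were higher for DEX after iron, where 99 genes were higher and 71 lower in place of 0. For the difference 2 enzymes were higher, where 683 genes were higher and 776 lower. DESeq2 called 562 genes higher and 747 lower for the difference, 5 and 5 for DEX after iron, and 2 further enzymes for iron with DEX, Cyp27a1 (LFC -0.25, adjusted p 0.036) and Slc27a5 (0.32, 0.047). Leaving out each mouse gave 1 to 2 enzymes higher for the difference; the second was Cyp8b1, without replicate 3 of FeSO4/PBS. Without 1 mouse DEX alone called from 606 to 1284 genes higher and from 578 to 1259 lower, the highest without replicate 1 of FeSO4/PBS, and the difference from 229 to 408 higher and from 308 to 628 lower. The other scalings of the 2 gene lists and of the summed level were chosen after seeing the data. Library size alone gave a ratio of the summed per-kilobase level in FeSO4/PBS over NaCl/PBS of 0.888 in place of 1.11. The cause of these changes was not tested.

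Correlations between the deviations of same-numbered mice of different groups were weak (from -0.09 to 0.13, 2 of 18 pairs over 0.1). Both pairs over 0.1 were of NaCl/PBS with NaCl/DEX. With so few mice per group these correlations cannot decide whether the numbers pair the mice. With a replicate block 2 enzymes were higher and 2 lower for iron alone, since Slc27a5 had an LFC of 0.36 with an adjusted p of 0.051; no other enzyme call changed. Per kilobase of the longest transcript, Amacr was at 719 in place of 352 in NaCl/PBS. Counts of 51 to 150 reads limit the precision of Cyp7a1 in FeSO4/PBS, and 46 to 67 reads that of Hsd3b7 in NaCl/DEX.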
